A study of Mus musculus with 2 samples.

Results

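The Mir26 genes of the mouse are Mir26a-1, Mir26a-2 and Mir26b, 3 microRNA (miRNA) genes that lie inside the Ctdspl, Ctdsp2 and Ctdsp1 genes. They were taken by symbol from the 1973 miRNA genes of the deposited count tables, and all 3 had reads in both libraries. The libraries hold small RNA of less than 30 bases from healthy embryonic midbrain of the B6NCrl mouse strain at 15.5 days. Tissue was pooled over male and female embryos, 78 for replicate 1 and 62 for replicate 2, and the labels call the pools biological replicates. There is a single group, with no treated, mutant or other-age samples, so the questions are how much of each Mir26 gene was counted and whether the pools differed in it. In such bulk tissue, more cells making a miRNA and more miRNA per cell cannot be told apart.

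A miRNA gene is transcribed into a hairpin, which is cut into a 5p arm and a 3p arm. One arm usually guides the silencing of messenger RNAs, mainly through its seed, bases 2 to 8. miR-26 is usually loaded as its 5p arm, and it is known for restraining growth and cell cycle genes such as Ezh2. Its hosts encode small C-terminal domain phosphatases, which act with the repressor REST to keep neuronal genes off outside neurons. In zebrafish, miR-26b has been described to repress its own host during neurogenesis.

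The mature RNAs show which Mir26 reads can be told apart, with the seed in capitals. All 3 genes were matched to RefSeq sequences (GRCm38.p6).
miR-26a-5p: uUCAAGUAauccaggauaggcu
miR-26b-5p: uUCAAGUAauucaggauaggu
miR-26a-1-3p: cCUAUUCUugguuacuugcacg
miR-26a-2-3p: cCUGUUCUugauuacuuguuuc
miR-26b-3p: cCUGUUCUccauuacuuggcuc
Mir26a-1 and Mir26a-2 encode the same 5p RNA, so miR-26a-5p has 2 source genes. Counted from the 5′ end, miR-26b-5p differs from miR-26a-5p over their 21 shared positions by C11U and C21U. Both changes lie outside the seed, and the seed UCAAGUA was found in the mature RNAs of these 3 genes alone among the 1738 mature RNAs in the RefSeq table. The 3p arms differ more. That of Mir26a-1 differs from that of Mir26a-2 by 6 of 22 bases, including A4G inside the seed, and from that of Mir26b by 8. Mir26a-2 and Mir26b share the 3p seed CUGUUCU, which Mir6932 and Mir7039 also carry. Those genes were nearly uncounted, at 0.875 and 0 CPM for Mir6932 and 0 and 0.174 CPM for Mir7039 in replicates 1 and 2. CPM is counts scaled to the total of sense reads on all miRNA genes.

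The hairpins, printed with both mature arms in capitals, show how far the likeness of the genes reaches.
Mir26b: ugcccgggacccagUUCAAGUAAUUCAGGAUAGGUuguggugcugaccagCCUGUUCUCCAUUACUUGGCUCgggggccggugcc
Mir26a-2: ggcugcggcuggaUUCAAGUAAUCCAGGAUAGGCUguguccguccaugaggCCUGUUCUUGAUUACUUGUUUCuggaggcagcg
Mir26a-1: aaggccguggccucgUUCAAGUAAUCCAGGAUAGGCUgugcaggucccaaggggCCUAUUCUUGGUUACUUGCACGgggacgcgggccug
The longest stretch common to Mir26a-1 and Mir26a-2 was 25 bases, the 5p arm and the 3 bases after it, and their hairpins were identical at 66 of 91 aligned positions. Mir26b shared at most 10 bases in a row with Mir26a-2 and 11 with Mir26a-1, around the seed. Cut into stretches of 22 bases, a usual miRNA length, the Mir26b hairpin gave 64 stretches, and none occurred in another miRNA gene of the GENCODE M21 annotation. Mir26a-2 had 4 shared stretches of 63 and Mir26a-1 had 4 of 69, all on the 5p arm and all shared between these genes only. A read equal to mature miR-26a-5p therefore has at least 2 exact places in the genome, and the tables tally reads with several places apart, under no gene. Each 3p arm of the Mir26a genes, and both arms of Mir26b, had no exact copy in another miRNA gene. Whether a counted read came from the 5p or the 3p arm is not shown in tables with 1 count per gene.

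**Figure D1:**
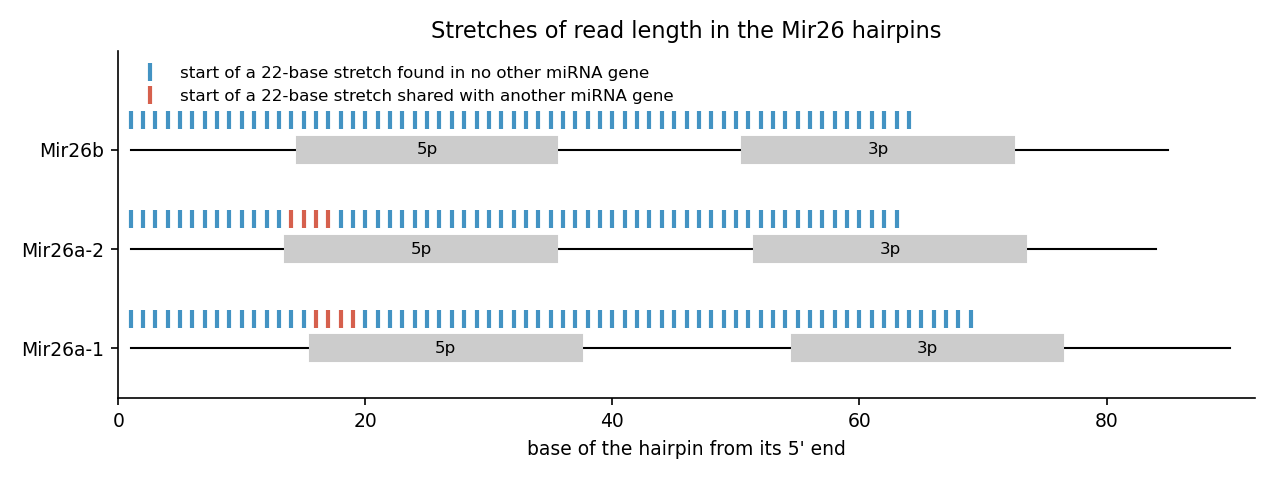
Hairpins of the 3 Mir26 genes drawn to scale in bases from the 5′ end, with mature arms as grey boxes and 1 tick at the start of every 22-base stretch. Red ticks, 4 in Mir26a-2 and 4 in Mir26a-1, mark stretches shared between those genes, and all 64 ticks of Mir26b are blue (found in no other miRNA gene).

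Mir26b was among the most counted miRNA genes of the midbrain, while both Mir26a genes were counted at a trace. Mir26b had 54267 reads in replicate 1 and 100545 in replicate 2, or 15823 and 17479 CPM. It was the gene of rank 13 in each library. Mir26a-2 had 68 and 154 reads, or 19.8 CPM (95% exact counting interval 15.4 to 25.1) and 26.8 CPM (22.7 to 31.3), and stood at rank 279 by mean. Mir26a-1 had 16 and 28 reads, or 4.67 CPM (2.67 to 7.58) and 4.87 CPM (3.23 to 7.03), at rank 340. Every library kept the order Mir26b, Mir26a-2, Mir26a-1, and the ranges of the 3 genes did not overlap.

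As means, the levels were 16651 ± 1171 CPM for Mir26b, 23.3 ± 4.91 CPM for Mir26a-2 and 4.77 ± 0.143 CPM for Mir26a-1 (SD, n = 2 libraries). The SD of Mir26a-1 is narrower than its counting error, since 16 and 28 reads happened to give nearly the same CPM. Mir26b exceeded the sum of the Mir26a genes by 646 times in replicate 1 and 552 times in replicate 2. It thus held 99.8% of the Mir26 reads given to a gene in either library, and Mir26a 0.155% and 0.181%. The 3 genes together took 1.58% and 1.75% of all sense reads. The hairpins are 84 to 90 bases long, and the order was the same per base of hairpin, at 186 and 206 CPM per base for Mir26b, 0.236 and 0.319 for Mir26a-2, and 0.0518 and 0.0541 for Mir26a-1. No read lay on the opposite strand of any Mir26 gene in either library, so all 54267 and 100545 Mir26b reads were sense (lower 95% exact bound 99.99% in replicate 1).

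**Figure D2:**
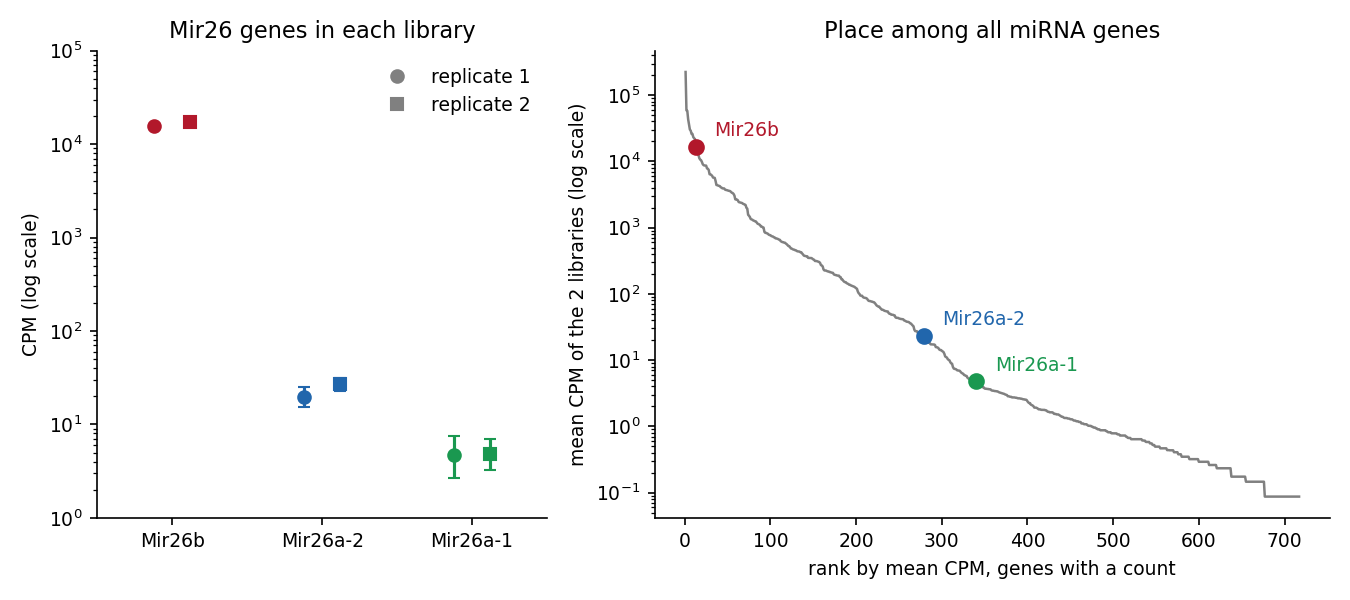
Left, CPM of each Mir26 gene (log axis) in replicate 1 (circles) and replicate 2 (squares), with bars for 95% exact counting intervals, which are smaller than the symbol for Mir26b. Right, mean CPM (log axis) of the 717 miRNA genes with a count against their rank, with Mir26b at rank 13, Mir26a-2 at 279 and Mir26a-1 at 340.

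Next to Mir26b in level stood members of other miRNA families. Above it were Mir149 (21054 and 23524 CPM) and Mir30e (20240 and 23159 CPM), and below it Mir181c (14307 and 15713 CPM) and Mir369 (13218 and 12589 CPM). No gene had a range that overlapped that of Mir26b, though its mean differed from that of Mir181c by 1641 CPM, less than the sum of their SDs. The Mir26a genes had many neighbours of like level. The range of Mir26a-2 overlapped those of 18 genes, among them Mir193b, Mir200c, Mir574 and Mir3078, whose means lay between 20.6 and 24.5 CPM. That of Mir26a-1 overlapped those of 19 genes, among them Mir294, Mir6977, Mir653 and Mir147, with means of 4.65 to 4.96 CPM. Neither Mir26a gene can be ranked against these neighbours at this depth.

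Reads with several places, which no gene received, were far more numerous than the Mir26a reads. They numbered 2847913 in replicate 1 and 4694526 in replicate 2, which was 52.4 and 46.6 times all Mir26 reads given to a gene. The gap between Mir26b and the sum of Mir26a-1 and Mir26a-2 was 54183 reads in replicate 1, which equals 1.90% of the multi-place reads. In replicate 2 it was 100363 reads, or 2.14%. If that part of the multi-place reads were miR-26a-5p, miR-26a and Mir26b would have equal counts. How many of them are miR-26a-5p was not measured here. The counts therefore order the genes only by reads with a single place, not by all RNA the genes made. They do not order the mature miR-26a and miR-26b either.

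Of the Mir26a reads that did reach a gene, most were given to Mir26a-2. Its share was 81.0% of 84 reads in replicate 1 (95% exact interval 70.9 to 88.7) and 84.6% of 182 reads in replicate 2 (78.5 to 89.5). Mir26a-2 was thus 4.25 and 5.50 times Mir26a-1, and each interval lies wholly above an even split. How the common miR-26a-5p was divided between Mir26a-1 and Mir26a-2 is not shown by these reads.

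Other miRNA genes that share only their 5p arm with another gene were often counted far higher than Mir26a. Besides the Mir26a genes there were 34 such genes with both arms listed, among 916 with arms in the RefSeq table. Of the 34, 29 reached a mean of 1 CPM, with a median of 347 CPM. Of these 29, 8 lay below Mir26a-2 and 6 below Mir26a-1. In 14 pairs both genes have both arms listed and each shares only its 5p arm, and only with the other. Pairs in which 1 gene has a single listed arm were not taken. Examples are Mir219a-1 with Mir219a-2 (means of 331 and 1147 CPM) and Mir129-2 with Mir129-1 (194 and 54.2 CPM). Of the 14 pairs, 2 had at least 1 copy under a mean of 1 CPM and were left out. These were Mir3070a with Mir3070b and Mir196a-2 with Mir196a-1. The other 12 pairs ranged in summed level from Mir181a-1 and Mir181a-2 (6369 CPM) to Mir450-1 and Mir450-2 (4.85 CPM). Among these 12 the Mir26a pair was second from the bottom with 28.1 CPM. Mir125b-2 and Mir125b-1, whose common 5p RNA is also an abundant brain miRNA, had 2228 and 2264 CPM in replicate 1 and 2299 and 2197 CPM in replicate 2. Pairs that share only their 5p arm thus had high counts in some cases and low counts in others. Which arm gave the counts of each pair is not shown. Whether the shared arm lowered the Mir26a counts was not tested. The ratio between the Mir26a copies was 4.25 and 5.50 in replicates 1 and 2. The largest mean ratio of the 12 pairs was that of Mir194-2 over Mir194-1, at 278 and 39.2, with Mir194-1 at a mean of only 1.01 CPM. Next was Mir181b-2 over Mir181b-1, at 121 and 132. The ratio was 5.54 and 12.2 for the Mir181a pair and 0.984 and 1.05 for Mir125b-2 over Mir125b-1.

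**Figure D3:**
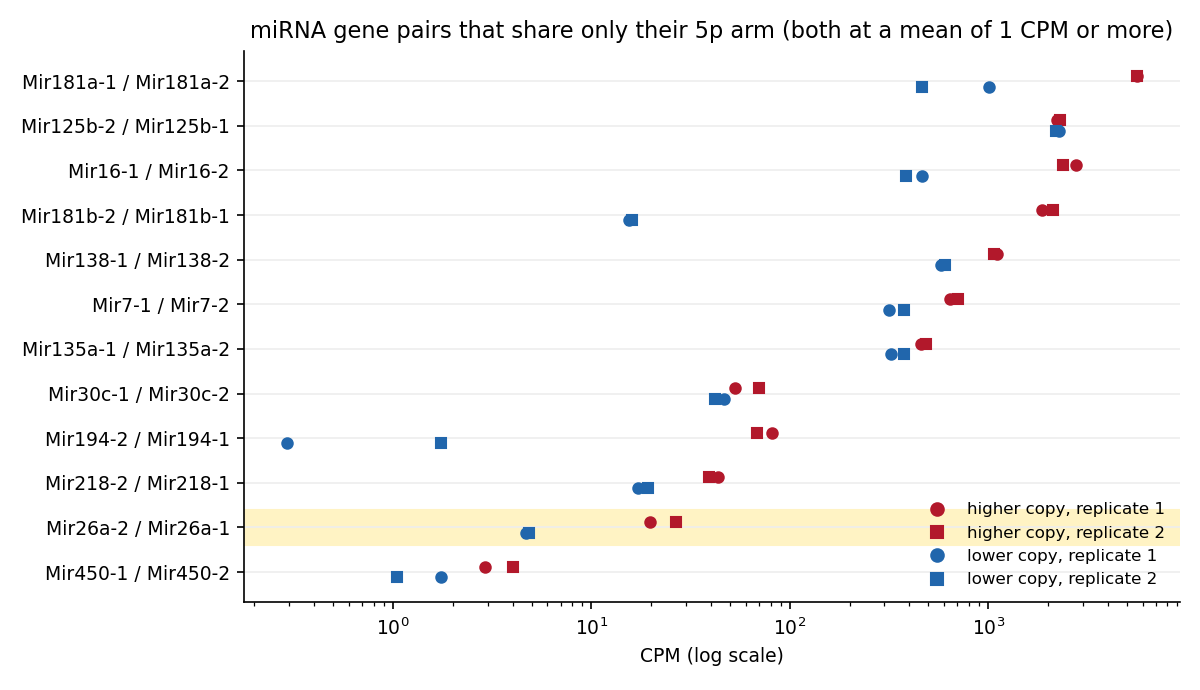
CPM (log axis) of the 12 pairs of miRNA genes with both arms listed that share only their 5p arm. Both copies have a mean of at least 1 CPM. The copy of higher mean is in red and that of lower mean in blue, with circles for replicate 1 and squares for replicate 2. Of these 12 the Mir26a pair (shaded) lies second from the bottom, with Mir26a-2 at 19.8 and 26.8 CPM and Mir26a-1 at 4.67 and 4.87 CPM.

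Of 4 families picked for comparison, which combine numbered copies with other genes, Mir26 had the smallest part of its counted reads in the copies. Other families of this make-up were not compared. In the Mir30 family the copies Mir30c-1 and Mir30c-2 held 0.255% of family reads in replicate 1 and 0.254% in replicate 2, near the 0.155% and 0.181% of Mir26a. In the Mir135 family the copies held 7.53% and 6.85%, and in the Mir181 family 27.5% and 24.9%. Over the copied brain miRNAs other than Mir26a, 27 of 30 listed genes were matched, all with counts, and their median was 424 CPM. Mir9-1, Mir7a-1 and Mir7a-2 were not matched under those names. Genes named Mir7-1 and Mir7-2 were counted, at means of 671 and 347 CPM, but stayed out of this median. Mir181a-1 (5631 ± 17.0 CPM), Mir16-1 (2581 ± 280 CPM), Mir125b-2 (2264 ± 50.3 CPM) and Mir125b-1 (2230 ± 47.2 CPM) led that list (SD, n = 2).

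The 3 genes sit at matching places in their hosts, on the host's strand. Mir26b is on chromosome 1 at 74394310 to 74394394 (mm10), within intron 4 of Ctdsp1. Mir26a-2 is on chromosome 10 at 126995530 to 126995613, within intron 5 of Ctdsp2. Mir26a-1 is on chromosome 9 at 119031796 to 119031885, within intron 5 of Ctdspl, or intron 4 in a shorter coding transcript. In every coding transcript whose intron holds the hairpin, 3 exons follow it. The hosts differ in size, with 5777 bases for Ctdsp1, 21259 for Ctdsp2 and 117546 for Ctdspl, and the introns measure 564, 1946 and 3283 bases in the same order. The most counted hairpin thus lies in the shortest host, 2801 bases from its start, and the least counted in the longest, 105343 bases from its start. With 3 genes and no host RNA in the tables, no relation to the hosts was tested. For Ctdsp2 the annotation also lists 2 short transcripts, Ctdsp2-201 and Ctdsp2-203, that begin at base 126995613, the last base of the Mir26a-2 hairpin, and overlap it by that 1 base.

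**Figure D4:**
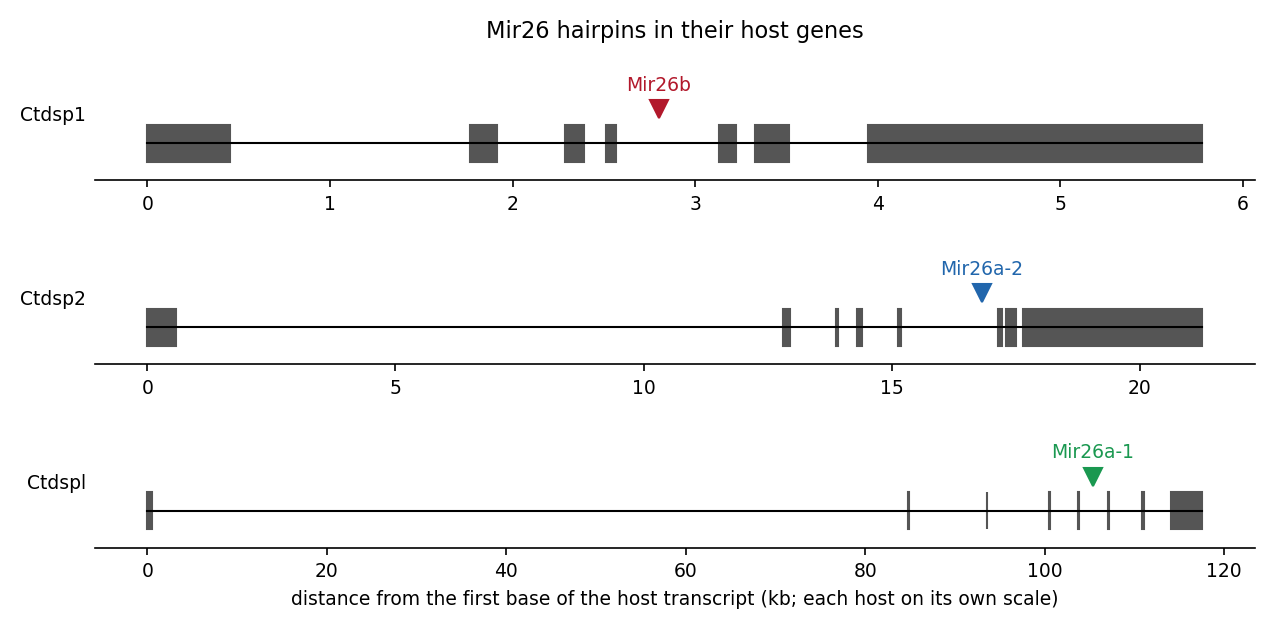
Exons (boxes) and introns (line) of a coding transcript of each host, in kb from its first base and each on its own scale, with a triangle at the miRNA hairpin. In all 3 hosts the hairpin lies in the intron that 3 exons follow.

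The hairpins themselves were alike in predicted stability. Folded with RNAfold, Mir26b had a minimum free energy of -43.5 kcal/mol, Mir26a-2 of -44.5 and Mir26a-1 of -49.4. Per base these were -0.51, -0.53 and -0.55 kcal/mol, against a median of -0.41 over the hairpins of the RefSeq table. Mir26a-1, the least counted, had the lowest energy, and the GC content ran from 53.6% for Mir26a-2 to 60.0% for Mir26a-1.

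The hosts' own messenger RNAs were searched for the miR-26 seed match because of the reported feedback on the host. Which mouse host corresponds to the zebrafish host of that report was not examined, so the search does not address that feedback directly. The 7-base match TACTTGA was sought on the transcript strand of the longest annotated 3′ untranslated region of each gene, as was the 8-base match TACTTGAA, which contains it. Only Ctdsp2 among the hosts held the 7-base match, once, at base 1080 of 3489. Ctdspl and Ctdsp1 did not hold TACTTGA. Other kinds of seed match, such as shorter ones, were not sought. Of the regions within 10% of the length of that of Ctdsp2, 22.6% held the 7-base match. Rest, whose product acts with the phosphatases, and the well-known miR-26 target Ezh2 each held an 8-base match, found in 10.8% and 1.45% of regions of like length. The matched letters stand in capitals.
Ctdsp2: ccaagtgttgctctTACTTGAt
Rest: ttggcttagtaaatTACTTGAA
Ezh2: atttgaataaagaaTACTTGAA
The seed match is common to miR-26a and miR-26b, and none of these messenger RNAs was measured here.

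Between the pools, Mir26b differed little. After TMM scaling, edgeR's adjustment for library composition, it was 1.08 times as high in replicate 2 as in replicate 1, a log2 ratio of 0.11 (95% counting interval 0.095 to 0.13). The two-sided conditional exact binomial test called this difference (Benjamini-Hochberg adjusted p = 2.15e-45), as it did for 70 of 717 genes in this direction, or 9.76%. That test covers counting error only, and among 87 genes with at least 10000 reads over both libraries it called 78.2% in either direction. When edgeR's exact test was given an assumed biological variation of 10%, it gave Mir26b an adjusted p of 1 and called 0.418% of genes. Mir26a-2 had a log2 ratio of 0.38 (counting interval -0.021 to 0.83) and was not called by the exact binomial test (adjusted p = 0.213). Mir26a-1 had a log2 ratio of 0.023 (-0.91 to 1.01, exact binomial adjusted p = 1). Its interval includes differences of nearly 2-fold in either direction, so a change of that size was not detectable at this depth. With 1 library per pool, none of these differences has a replicate check.

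Of the miRNA genes described as targets of REST, the repressor with which the hosts act, 17 of 18 were matched and counted. Their median level was 42.6 CPM. They were led by Mir135b (9617 and 11678 CPM), Mir153 (3224 and 3495 CPM), Mir139 (3233 and 3405 CPM) and Mir132 (777 and 891 CPM). Mir26b exceeded each of them in both libraries, in reads that were given to a gene. The Mir9, Mir124a, Mir29b and Mir218 copies on this list share an arm with another gene, and reads with several places were given to none. The median and the comparison with Mir26b therefore do not rank the mature RNAs. By the exact binomial test 6 of the 17 were higher in replicate 2 and 0 in replicate 1. Of all genes tested, 9.76% were higher in replicate 2, but the genes tested had a median of only 3.46 CPM. In either direction the test called 19.8% of all genes and 78.2% of those with at least 10000 reads. No share matched for read number was computed, so a shift of the list between the pools was not tested. The median log2 ratio of the list was 0.083, against 0.036 over all genes with a count.

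Sense reads on miRNA genes numbered 3429704 in replicate 1 and 5752476 in replicate 2, so that 1 read was worth 0.292 and 0.174 CPM. Of 10 neural marker genes, 9 were matched and all 9 were counted, with a summed level of 18466 and 19814 CPM, most of it the neuronal Mir137. The defining Mir124a copies stood at 0.552 to 3.69 CPM as means. They were listed among copied miRNAs with a shared arm, and reads with several places were given to no gene. These counts, and the neural sum, therefore do not show the level of the mature RNAs. Vessel markers summed to 31300 and 27436 CPM, red cell markers to 197 and 208, and white cell markers to 334 and 319. Epithelial markers summed to 657 and 803, liver markers to 132 and 162, and muscle markers to 30.6 and 63.6. In the muscle list Mir1a-1, Mir133a-1 and Mir133a-2 were at 0. Mir1a-2 of that list and Mir142 of the white cell list were not matched. Reads with several places entered none of these sums, so a low sum does not show that the mature RNAs were absent. What part the cells behind these markers had in the Mir26 levels was not tested.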

How the data were processed

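The authors deposited, for each of 2 midbrain libraries, whole read counts per miRNA gene with the strand ignored and for each strand. The reads had been aligned to mm10 with GENCODE annotation M4, per the deposited readme text. Which programs aligned and counted them is not given in the sources used here. Rows that name no gene (4) stayed out of library sizes. They held, of all reads in replicates 1 and 2, unmapped reads (13.4% and 16.9%), multi-place reads (37.7% and 35.8%), reads outside genes (3.57% and 3.43%) and 0 ambiguous reads. GENCODE M21, on the same assembly, gave symbols for 1894 of 1973 identifiers. Levels are sense counts as CPM. PCR reads are not independent molecules, so intervals cover counting error only. Over 469 genes, a chi-square test (27185, 468 degrees of freedom) found more difference between the libraries than sampling noise gives.

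Log2 ratios are replicate 2 over replicate 1 with TMM factors of edgeR 4.0.16 and a pseudocount of 1 CPM, which understates ratios of low genes. They were tested with an exact binomial test in SciPy 1.17.1, adjusted over the 717 genes with a count. A single group leaves no contrast for the quasi-likelihood test. The binomial test was tried on simulated counts with changed genes and sampling noise only, scaled by library totals. That trial could not check it for the wider spread between these libraries or for TMM scaling. Hairpins were folded with RNAfold 2.7.2 and aligned with Biopython 1.88. Alternatives used other count columns, denominators, scalings (DESeq2 1.42.0 size factors among them), filters, pseudocounts and read lengths, and left out each replicate.

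The members and lists were chosen with earlier results of these data known. Named genes are the 3 Mir26 genes, the 2 next above and below each in mean CPM, genes sharing a seed, and up to 4 leading genes of each list. The seed rule was set for the 5p arm, and Mir6932 and Mir7039 were added for the 3p seed. Genes of copy pairs, families, marker lists and seed-match searches were also named outside that rule.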

Additional observations from a re-analysis of the deposited data

How the results depend on the processing

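Of 86 recomputed values, 72 stayed within the replicate spread or on the same side of the threshold, and none changed direction. Part of this was fixed in advance, so the 72 do not measure robustness. Leaving out 1 of 2 libraries always moves a mean level, share or ratio by less than its SD. The pseudocount does not enter the test. With no opposite-strand Mir26 reads, ignoring the strand cannot change ratios among these genes. Adding the multi-place reads to the denominator lowered Mir26b to 9134 CPM, Mir26a-2 to 12.8 CPM, Mir26a-1 to 2.61 CPM and the family share to 0.915%. Leaving Mir99a out of it raised them to 21430, 29.9 and 6.14 CPM and 2.15%. Both follow from the construction of the denominator and leave ratios between the genes as they were. With edgeR's exact test at a coefficient of variation of 10%, the ratio of Mir26b (log2 0.11) was no longer called, and the genes called fell to 2 higher in replicate 2 and 1 higher in replicate 1. Over the other alternatives the adjusted p of Mir26b stayed between 5.95e-77 and 1.50e-40. With the strand ignored, Mir26a-2 stood at rank 290 and Mir26a-1 at 352. Single libraries gave 273 to 278 and 338 to 341 for these ranks, 15823 to 17479 CPM for Mir26b and 4.25 to 5.50 for the ratio of Mir26a-2 to Mir26a-1. Leaving out a replicate gives no value for ratios between the libraries. The comparison of hairpins with all transcripts was added after seeing the data and changed no count. No paired analysis was possible because there is only 1 group. Depth limits Mir26a-1, at 16 and 28 reads, the most.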
